A study of Homo sapiens with 9 samples.

Results

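The genes described here encode the protein subunits of the mitochondrial ribosome, measured in A549, a cell line established from a human lung adenocarcinoma. They were chosen by name: every row of the deposited tables whose Ensembl ID mapped to a protein-coding gene with a symbol of MRPL or MRPS followed by a number. The choice found 78 of 62257 rows, of which 49 carried an MRPL symbol (large subunit) and 29 an MRPS symbol (small subunit). The study asked how vesicles released by dying cells act on tumour cells. A549 cells were kept for 96 h with apoptotic extracellular vesicles (apoEVs) from staurosporine-induced apoptosis, the sts group, with apoEVs from cisplatin-induced apoptosis, the ddp group, or with PBS (phosphate-buffered saline), the control group. Each group had 3 libraries, 9 in all. Staurosporine is a broad protein kinase inhibitor and cisplatin is a platinum drug that crosslinks DNA. The labels give no vesicle dose and do not state that replicate libraries were grown as separate cultures. The spread behind each p-value is therefore that of these libraries and may be technical.

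Mitochondria keep a small genome of their own, and its messenger RNAs are translated inside the organelle by a dedicated ribosome. The ribosomal RNAs come from that genome, while all of the ribosomal proteins are encoded in the nucleus, made in the cytosol and imported. Some of these proteins descend from bacterial ribosomal proteins and others are found only in mitochondria. The proteins made by this ribosome are core subunits of the respiratory chain and of ATP synthase.

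Total counts per library ran from 13799950 to 14816996 in sts, from 15949255 to 16526399 in ddp and from 14356195 to 15492993 in control. The members together took 0.409% to 0.448% of all counts in sts, 0.494% to 0.522% in ddp and 0.459% to 0.489% in control. The cells had the keratins of an epithelial line: KRT8 averaged 4815 CPM (counts scaled to a common library total) in sts, 3647 CPM in ddp and 6476 CPM in control. KRT7 had another order, with 713 CPM in sts, 1288 CPM in ddp and 1157 CPM in control. The epithelial adhesion genes of the same list were low. EPCAM averaged 1.65 CPM in sts, 2.66 CPM in ddp and 3.58 CPM in control, and CDH1 9.29, 11.2 and 17.4 CPM. Among markers of other cell types, CD163, CD2 and MS4A1 had 0 counts in all 9 libraries, which allows up to 0.217 CPM in the shallowest library if 3 counts are taken as the floor. The summed CPM of 6 macrophage markers was 20.8 to 25.6 in sts, 13.7 to 15.7 in ddp and 11.0 to 16.4 in control, most of it CD14 and ITGAM. That of 6 endothelial markers was 2.53 to 4.52 in sts, 1.65 to 2.07 in ddp and 1.78 to 2.21 in control, and PECAM1 averaged 2.51 CPM in sts, 0.436 CPM in ddp and 0.160 CPM in control. For 6 fibroblast markers it was 3.17 to 3.72 in sts, 2.07 to 2.60 in ddp and 2.36 to 3.45 in control, and for 6 lymphocyte markers 0.282 to 0.631 in sts, 0.508 to 1.10 in ddp and 0.205 to 1.18 in control. The macrophage and endothelial sums of every sts library lay above those of every other library, and the part of such cells or genes in the results was not tested. In bulk RNA, fewer cells of a type and less RNA per cell cannot be told apart. The library sts replicate 1 stood apart from the other sts libraries in the members: the median over tested members of the log2 ratio of its CPM to the control mean was -0.23, against -0.04 and -0.07 in sts replicates 2 and 3.

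Across the members, levels per gene length spanned a wide range that was alike in the 3 groups. In FPKM, the deposited unit that scales fragments by gene length and library total, the median over the 78 members of the group mean was 18.4 in sts, 21.4 in ddp and 19.6 in control. Per gene length, the 49 large subunit genes had a higher median than the 29 small subunit genes in each group. The medians were 21.7 against 10.7 FPKM in sts, 28.0 against 13.1 FPKM in ddp and 25.0 against 12.5 FPKM in control. They include 1 MRPL and 3 MRPS genes at 0 in all libraries and depend on the deposited gene lengths. MRPS27, with a deposited length of 24366 bases, had 119 CPM but 4.82 FPKM in control. The difference between the subunits is therefore not shown to be one of RNA amount. The summed FPKM of MRPL genes divided by that of MRPS genes was 2.23 ± 0.0379 in sts, 2.26 ± 0.0656 in ddp and 2.25 ± 0.0666 in control (SD, n = 3 each), so the groups overlapped in this ratio. It is a ratio of sums over unequal numbers of genes and depends on the gene lengths used. Giving subunits their place in the ribosome's structure, rather than in their symbol, moved the ratio to 2.41 ± 0.0436 in sts, 2.42 ± 0.0569 in ddp and 2.41 ± 0.0666 in control.

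**Figure D1:**
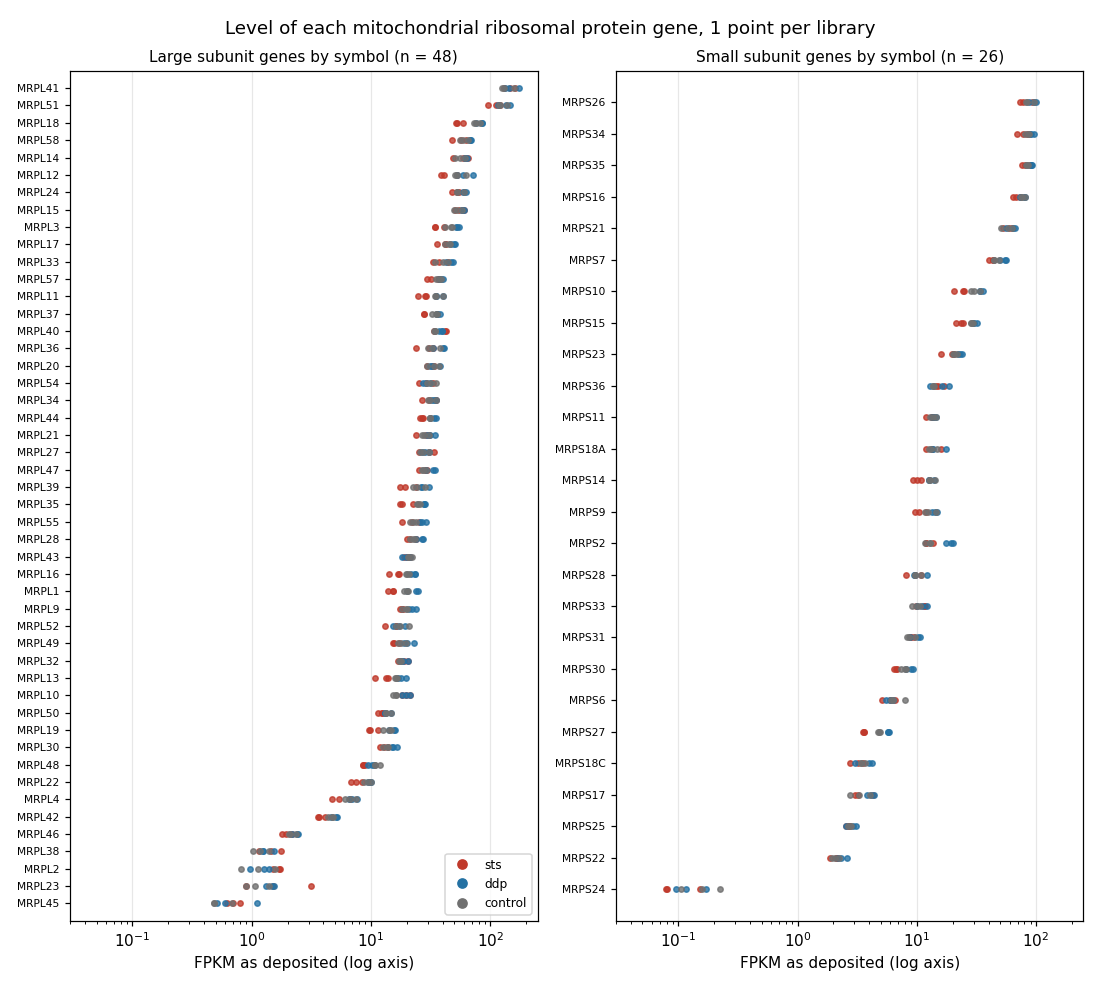
Deposited FPKM (log axis) of each member with any count, 1 point per library, for MRPL genes on the left and MRPS genes on the right, with sts in red, ddp in blue and control in grey. MRPL41 and MRPL51 lie at the top, near 100 FPKM and above, and MRPS24 lies at the bottom, below 1 FPKM, in all groups.

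Per gene length (FPKM), the 5 highest levels in control belonged to subunits that bacteria lack. MRPL41 (ENSG00000182154, chromosome 9, 137551879 to 137552555, plus strand) averaged 146 ± 16.0 FPKM in sts, 151 ± 22.3 FPKM in ddp and 138 ± 16.5 FPKM in control (SD, n = 3). MRPL51 (chromosome 12, 6491886 to 6493841, minus strand) averaged 110.5 ± 13.1 FPKM in sts, 133 ± 15.5 FPKM in ddp and 126 ± 11.6 FPKM in control. The libraries of both genes overlapped in ddp and control. In sts they did not, with 130.1 to 162 FPKM for MRPL41 and 96.5 to 122 FPKM for MRPL51. MRPS26, MRPS34 and MRPS35 followed in control at 87.9 ± 7.77, 85.1 ± 3.13 and 83.6 ± 1.79 FPKM, within each other's spread. None of the 5 passed the test in sts or ddp against control. MRPL41 had adjusted p = 0.539 in sts and 0.506 in ddp, with 95% intervals of the log2 fold change from -0.11 to 0.31 and from -0.09 to 0.33. In sts against ddp MRPL51 (-0.24, adjusted p = 0.0411) and MRPS34 (-0.23, adjusted p = 0.0238) were lower. The MRPL51 call ended without sts replicate 1 or 2 or ddp replicate 1 or 3 (adjusted p = 0.0935 to 0.205). That of MRPS34 ended without replicate 1 of either group (adjusted p = 0.101 to 0.138).

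At the other end, 5 members did not pass edgeR's filter on low counts and could not be tested. MRPL53, MRPS5, MRPS12 and MRPS18B had 0 counts in all 9 libraries, and MRPS24 had 47 counts in all of them together. MRPS12 is the homologue of the bacterial decoding-centre protein S12, and MRPS5 and MRPS24 are homologues of bacterial S5 and S3, so the listed 0 stands beside subunits of the same particle that were well measured, such as MRPS10. In the deposited coordinates the row of MRPL53 lies within CCDC142, that of MRPS12 within AC011455.2 and that of MRPS24 within the read-through row URGCP-MRPS24. MRPS5 and MRPS18B, also at 0 counts, had no other row that covered at least 50% of their span. Of the 9 members below 2 FPKM in control, 5 (55.6%) were covered over at least 50% of their span by another protein-coding row, against 14 of the 69 members (20.3%) at 2 FPKM or more. MRPL2, which lies within KLC4, and MRPL38, which lies within AC087289.3, were at 1.17 and 1.20 FPKM in control. The part of overlapping rows in these low values was not tested. MRPL45, whose protein anchors the mammalian mitochondrial ribosome to the inner membrane, had 156 counts over the 9 libraries, while its pseudogene row MRPL45P2 had 1789. Reads of near-identical copies may be split between such rows, so MRPL45 is uncertain. All 77 pseudogene and antisense rows with an MRP name together had 2315 counts, 0.362% of the members' 640354.

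Starting regions of the genes were read from RefSeq (GRCh38.p14) for 69 of the 78 members, as windows of 300 bases from 250 before to 50 after the annotated start, on the strand of the gene. These 4 are shown because they belong to members whose levels changed and differ in the motifs they hold. MRPS10 (window chr6:42217812-42218111, minus strand) has an ETS core and a YY1 core, MRPL22 (chr5:154940823-154941122, plus strand) has an E-box, an NRF1 core and a YY1 core, MRPS2 (chr9:135499715-135500014, plus strand) has an E-box, and MRPL18 (chr6:159789617-159789916, plus strand) has none of these. Capitals mark those motifs.
MRPS10: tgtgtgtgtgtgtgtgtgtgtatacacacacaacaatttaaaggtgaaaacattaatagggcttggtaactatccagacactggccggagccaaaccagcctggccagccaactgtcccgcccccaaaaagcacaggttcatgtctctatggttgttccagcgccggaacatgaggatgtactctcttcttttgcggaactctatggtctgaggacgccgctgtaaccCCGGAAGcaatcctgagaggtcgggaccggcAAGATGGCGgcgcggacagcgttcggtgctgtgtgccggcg
MRPL22: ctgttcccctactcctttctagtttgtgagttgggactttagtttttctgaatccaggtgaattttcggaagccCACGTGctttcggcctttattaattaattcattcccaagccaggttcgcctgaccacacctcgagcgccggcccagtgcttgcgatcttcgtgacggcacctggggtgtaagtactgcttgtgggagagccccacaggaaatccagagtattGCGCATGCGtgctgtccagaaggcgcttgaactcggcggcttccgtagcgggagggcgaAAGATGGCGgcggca
MRPS2: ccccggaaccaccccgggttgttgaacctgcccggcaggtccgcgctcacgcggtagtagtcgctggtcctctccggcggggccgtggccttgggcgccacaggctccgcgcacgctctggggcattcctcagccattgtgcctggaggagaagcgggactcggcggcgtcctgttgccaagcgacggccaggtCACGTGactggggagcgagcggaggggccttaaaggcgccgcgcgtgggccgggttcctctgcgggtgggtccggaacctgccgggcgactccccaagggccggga
MRPL18: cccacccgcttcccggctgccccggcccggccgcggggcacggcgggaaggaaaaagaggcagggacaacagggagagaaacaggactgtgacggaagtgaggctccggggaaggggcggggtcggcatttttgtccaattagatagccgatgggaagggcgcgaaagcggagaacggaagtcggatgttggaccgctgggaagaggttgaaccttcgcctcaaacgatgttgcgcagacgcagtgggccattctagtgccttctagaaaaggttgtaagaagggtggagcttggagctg

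ETS factors, NRF1 and YY1 are transcription factors known for binding near the starts of many nuclear genes for mitochondrial proteins, and the E-box is the site of MYC with MAX. Motifs were searched on both strands as exact letters. The ETS core CCGGAAG was in 29 of 69 member windows (42.0%), against 14.2% of the 15842 windows of protein-coding genes. Those 15842 were the first window listed for each symbol, with members not removed, while a member's window was the one nearest its deposited start. The YY1 core AAGATGGCG was in 18.8% of member windows, against 2.74% of all, and the NRF1 core GCGCANGCG in 18.8%, against 11.0% of all. The E-box CACGTG was in 8.70% of member windows, against 8.88% of all, and the TATA box TATAAA in 2.90%, against 9.63%. Median GC content was 61.0% in member windows, against 62.7% in all. Among members lower in sts than in ddp, 10 of 35 windows (28.6%) held the ETS core, against 17 of 29 windows (58.6%) of tested members that did not pass in that comparison. For the E-box the shares were 11.4% and 6.90%, for the NRF1 core 22.9% and 17.2%, and for the YY1 core 14.3% and 20.7%. Without sts replicate 1, when fewer members were lower, the ETS core was in 3 of 20 windows of lower members, against 24 of 44 windows of the others. The E-box was then in 10.0% and 9.09%, the NRF1 core in 15% and 22.7%, and the YY1 core in 20% and 15.9%, so the NRF1 and YY1 shares changed order. The 20 windows are a part of the same 35, and these splits by call were not tested. These are counts of letters in the windows, and a match is not a bound site. MRPL46 and MRPS11, a large and a small subunit gene that lie head to head on chromosome 15, shared 181 bases of their windows.

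In sts against ddp, where the labels of the vesicles differ in the drug that started the apoptosis, about as many members were lower as did not pass. Of 73 tested members 37 were lower in sts (50.7%), against 19.5% of all 16947 tested genes and 29.3% of the 6119 tested genes within the members' range of mean level (edgeR's quasi-likelihood test, Benjamini-Hochberg adjusted p under 0.05). No member was higher by edgeR, DESeq2 or limma, nor at an unadjusted p under 0.05, while 20.2% of all tested genes were higher. The median log2 fold change of the tested members was -0.22, against 0.03 over all tested genes, and 62 of the 73 were negative. The changes were small: they ran from -0.66 to 0.47 over the members, and the largest was 1.58-fold, in MRPS27. Without sts replicate 1 the number lower was 22 of 73, against 2967 of all 17529 genes tested in that fit, and the median was -0.18. The share among genes at the members' level was not computed for that fit, so an excess over such genes is not shown without sts replicate 1. Of the 37 calls, 21 remained under every one of the 15 alternatives.

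**Figure D2:**
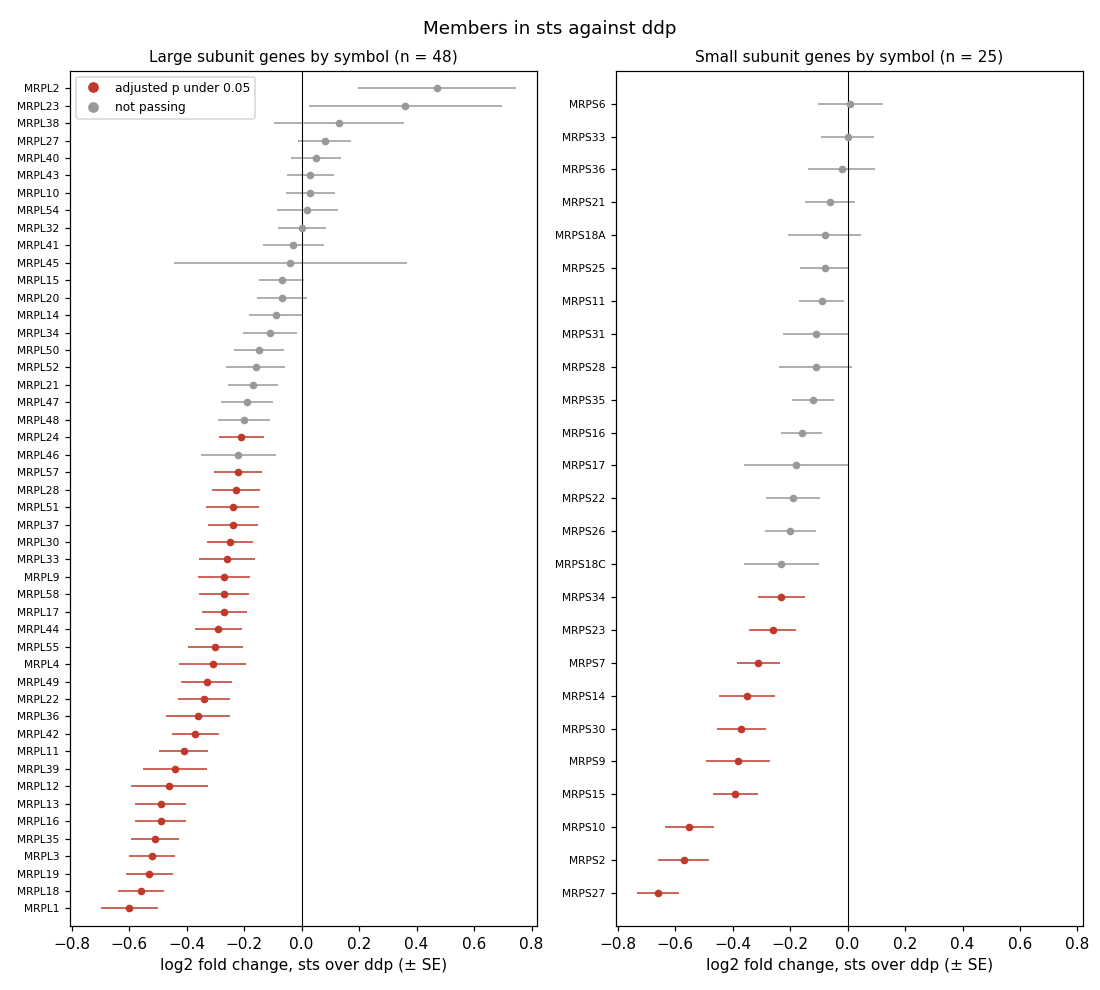
Log2 fold change of sts over ddp for each tested member (points) with its standard error (lines), large subunit on the left and small subunit on the right, red where the adjusted p was under 0.05. All 37 red points lie left of 0, 27 among 48 MRPL genes and 10 among 25 MRPS genes.

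MRPS27 (ENSG00000113048, chromosome 5, 72214953 to 72321717, minus strand), a small subunit protein without a bacterial homologue that belongs to the pentatricopeptide repeat family, had the largest difference. Its level was 90.4, 88.5 and 89.3 CPM in sts, 140.3, 143 and 139 CPM in ddp, and 118, 119.8 and 118 CPM in control. The 3 groups did not overlap: every ddp library was above every control library and every sts library below. Sts over ddp gave a log2 fold change of -0.66 (SE 0.072, adjusted p = 5.58e-09).

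MRPL1 (ENSG00000169288, chromosome 4, 77862830 to 77952785, plus strand), the homologue of the bacterial protein of the L1 stalk near the tRNA exit site, had 25.5, 25.6 and 23.0 CPM in sts, 38.8, 33.0 and 41.0 CPM in ddp, and 33.9, 33.0 and 31.3 CPM in control. All sts libraries lay below all ddp and control libraries, and ddp overlapped control. Between sts and ddp the log2 fold change was -0.60 (SE 0.099, adjusted p = 8.59e-06).

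MRPS2 (ENSG00000122140, chromosome 9, 135499965 to 135505141, plus strand), the homologue of bacterial S2, had 38.4, 44.4 and 38.2 CPM in sts, 61.0, 63.7 and 55.1 CPM in ddp, and 41.2, 36.9 and 40.9 CPM in control. The ddp libraries were above all others, and sts overlapped control. Sts was lower than ddp by a log2 fold change of -0.57 (SE 0.089, adjusted p = 3.81e-06), and the value in sts against control was 0.02 (95% interval -0.16 to 0.20, adjusted p = 0.876).

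MRPL18 (ENSG00000112110, chromosome 6, 159789812 to 159798436, plus strand), a protein of the central protuberance of the large subunit, had 72.7, 73.8 and 83.0 CPM in sts, 117, 105 and 117 CPM in ddp, and 114, 102 and 105 CPM in control. Every sts library was below every other library, and ddp overlapped control. The log2 fold change was -0.56 in sts against ddp (SE 0.080, adjusted p = 8.50e-07).

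MRPS10 (ENSG00000048544, chromosome 6, 42206807 to 42217861, minus strand), the homologue of bacterial S10 in the small subunit head, had 44.2, 53.2 and 51.5 CPM in sts, 71.3, 70.7 and 75.4 CPM in ddp, and 63.6, 71.4 and 60.7 CPM in control. All sts libraries were again the lowest. Its log2 fold change of sts over ddp was -0.55 (SE 0.087, adjusted p = 5.06e-06).

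The other leading members of this comparison are all large subunit proteins with bacterial homologues. MRPL19 (chromosome 2, 75646783 to 75690851, plus strand) averaged 94.4 ± 9.21 CPM in sts, 136 ± 7.64 CPM in ddp and 125 ± 9.50 CPM in control (SD, n = 3). It is covered over more than 50% by the row of GCFC2, so its reads are uncertain. MRPL3 (chromosome 3, 131462212 to 131502983, minus strand), the homologue of a protein that reaches towards the peptidyl transferase centre, averaged 101 ± 10.1 CPM in sts, 144 ± 3.61 CPM in ddp and 125 ± 7.98 CPM in control. MRPL35 (chromosome 2, 86199355 to 86213790, plus strand) averaged 75.9 ± 9.69 CPM in sts, 108 ± 1.59 CPM in ddp and 96.7 ± 2.27 CPM in control. In sts against ddp the log2 fold changes of these 3 genes were -0.53, -0.52 and -0.51, with adjusted p of 2.97e-06, 2.70e-06 and 7.19e-06, and sts did not overlap ddp in any of them.

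**Figure D3:**
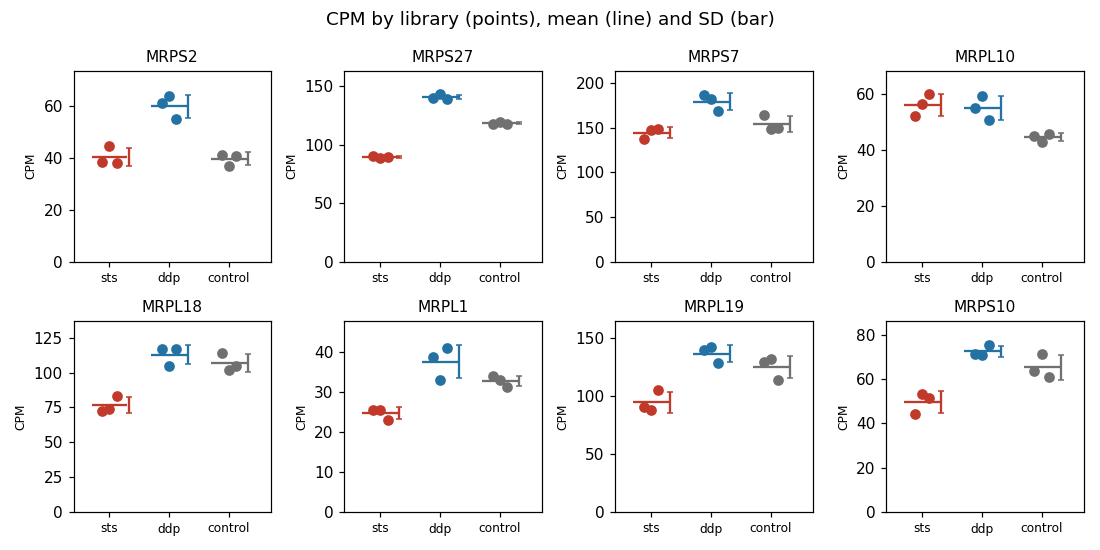
CPM of 8 members by library (points), with the mean (horizontal line) and SD (bar) of each group, sts left, ddp middle and control right, on axes that start at 0. MRPS27 separates all groups, MRPS2 is high in ddp alone, MRPL10 is high in sts and ddp, and MRPL18, MRPL1, MRPL19 and MRPS10 are lowest in sts.

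Between the subunits the calls in sts against ddp were 27 of 48 tested MRPL genes (56.2%) and 10 of 25 tested MRPS genes (40.0%), and the medians were -0.24 and -0.19. The difference of the medians, large minus small, was -0.046. Without sts replicate 1 the numbers lower were 14 of 48 and 8 of 25, with medians of -0.19 and -0.15. The share was then not larger in MRPL genes, and 2967 of all 17529 tested genes were lower. Of members with a bacterial homologue 25 of 43 were lower (median -0.26), and of mitochondria-specific members 12 of 29 (median -0.20). These became 16 of 43 (median -0.22) and 6 of 29 (median -0.15) without sts replicate 1. These subgroup differences were not tested. The 3 low members MRPL2, MRPL23 and MRPL38 had the most positive values, 0.47, 0.36 and 0.13, and did not pass (adjusted p = 0.184, 0.434 and 0.685). In MRPL23 the SD in sts, 3.46 CPM, was more than 50% of the mean of 5.58 CPM.

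In sts against control fewer members were called, again mostly lower. Of 73 tested members 17 were lower (23.3%), against 16.8% of all tested genes and 24.9% of tested genes at the members' level, so the share was close to that of genes of like level. MRPL10 was the only member higher by edgeR, against 15.9% of all tested genes. The median log2 fold change was -0.10, against 0.01 over all tested genes, and 54 members were negative. Without sts replicate 1 the numbers were 13 lower and 3 higher, with a median of -0.07. In that fit 2515 of all 17529 tested genes were lower and 2279 higher. Upper-quartile scaling and leaving out the filter on low counts each gave 2 higher.

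MRPL18 had the most negative value in sts against control, -0.48 on the log2 scale (SE 0.081, adjusted p = 1.51e-05), with the library values given above. MRPS27, MRPL19 and MRPL1 each had -0.41, with adjusted p of 3.39e-05, 0.000189 and 0.00185, and MRPS10 had -0.39 (adjusted p = 0.000582). In each of these 5 genes the sts libraries did not overlap the control libraries. MRPL11 (ENSG00000174547, chromosome 11, 66435075 to 66466738, minus strand), the homologue of the bacterial protein at the base of the factor-binding stalk, had 64.5, 75.6 and 73.0 CPM in sts, 103, 89.0 and 90.0 CPM in ddp, and 103, 88.4 and 90.8 CPM in control. Its sts libraries were below the rest, and ddp and control overlapped. Its log2 fold change was -0.41 in sts (SE 0.086, adjusted p = 0.00034) and 0.00 in ddp (adjusted p = 0.998), both against control.

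MRPS14 (chromosome 1, 175010789 to 175023425, minus strand), a small subunit head protein with a bacterial homologue, averaged 26.7 ± 2.15 CPM in sts, 34.0 ± 1.85 CPM in ddp and 34.5 ± 1.97 CPM in control (SD, n = 3), a log2 fold change in sts against control of -0.37 (adjusted p = 0.0032). MRPL48 (chromosome 11, 73787872 to 73865133, plus strand), a large subunit protein found only in mitochondria, had 33.5, 33.7 and 34.7 CPM in sts, 39.8, 36.2 and 41.3 CPM in ddp, and 46.4, 41.5 and 41.9 CPM in control. The groups did not overlap, with sts lowest and ddp between. MRPL48 was lower in sts than in control (log2 fold change -0.35, adjusted p = 0.00261) and missed the threshold against ddp (-0.20, adjusted p = 0.073). MRPL22, whose bacterial homologue lines the peptide exit tunnel and whose window is printed above for its motifs, averaged 40.8 ± 4.03 CPM in sts, 51.7 ± 2.04 CPM in ddp and 50.1 ± 3.56 CPM in control. It was lower in sts than in control (-0.30, adjusted p = 0.0101), a call that ended without sts replicate 1 or without control replicate 1. By subunit, 13 of 48 MRPL genes (27.1%) and 4 of 25 MRPS genes (16.0%) were lower, with medians of -0.13 and -0.10.

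MRPL10 (ENSG00000159111, chromosome 17, 47823272 to 47831541, minus strand), the homologue of the bacterial protein that carries the L7/L12 stalk, stood against that direction. It had 52.0, 56.2 and 60.0 CPM in sts, 54.8, 59.2 and 50.8 CPM in ddp, and 45.0, 42.8 and 45.5 CPM in control. All 6 vesicle-treated libraries were above all 3 control libraries, and sts and ddp overlapped. Over control the log2 fold change was 0.34 in sts (SE 0.087, adjusted p = 0.00276) and 0.31 in ddp (SE 0.086, adjusted p = 0.0127), with the control libraries shared by both comparisons. In ddp the call ended without control replicate 2 or ddp replicate 2 (adjusted p = 0.0598 and 0.0883). MRPL12, the homologue of the stalk protein L7/L12 that binds it, averaged 45.2 ± 7.91 CPM in sts, 62.2 ± 9.71 CPM in ddp and 56.4 ± 6.48 CPM in control. Its value in sts against ddp was -0.46 (adjusted p = 0.0137), with overlapping libraries, and the call ended without sts replicate 1 or sts replicate 3 (adjusted p = 0.0597 and 0.0569). Its row is covered over more than 50% by that of AC139530.2, so its reads are uncertain.

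In ddp against control few members changed and all of those were higher. Of 73 tested members 4 were higher (5.48%), MRPS2, MRPL10, MRPS27 and MRPS7, against 7.16% of all tested genes and 9.46% of tested genes at the members' level, so members were not called more often than other genes. No member was lower by edgeR, DESeq2 or limma, nor at an unadjusted p under 0.05, while 8.32% of all tested genes were lower. At an unadjusted p under 0.05, 13 members were higher. The median log2 fold change was 0.13, against -0.00 over all tested genes, and 66 of 73 members were positive. The number higher was 2 without control replicate 2, 2 without control replicate 3 and 1 without ddp replicate 2. MRPS2 alone kept its call under all 15 alternatives.

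MRPS2 had the largest change, a log2 fold change of 0.60 (SE 0.089, adjusted p = 7.92e-06), or 1.51-fold, with a mean of 59.9 ± 4.36 CPM in ddp and 39.7 ± 2.43 CPM in control (SD, n = 3). MRPS27 was 0.25 higher on the log2 scale (SE 0.071, adjusted p = 0.0137), in all 3 ddp libraries. Its call ended without control replicate 1, control replicate 3 or ddp replicate 2 (adjusted p = 0.0505 to 0.0592). MRPS7 (ENSG00000125445, chromosome 17, 75261674 to 75266376, plus strand), the homologue of bacterial S7 that organises the small subunit head, had 137, 147 and 148 CPM in sts, 186, 182 and 168 CPM in ddp, and 164, 148 and 149.8 CPM in control. Its ddp libraries were all above the control libraries. MRPS7 changed by a log2 fold change of 0.21 (SE 0.074, adjusted p = 0.0434). Its call ended without control replicate 2 or 3 or ddp replicate 1 or 2 (adjusted p = 0.127 to 0.178), without the filter on low counts and by limma.

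By subunit the ddp medians were 0.14 for MRPL genes and 0.12 for MRPS genes, and 1 of 48 and 3 of 25 were called. Without ddp replicate 2 these were 0 and 1, without control replicate 2 no MRPL gene was called, and without control replicate 3 the MRPS count was 1. All 30 tested large subunit members with a bacterial homologue had values of 0.00 or above, against 15 of 20 mitochondria-specific large subunit members with positive values. The difference between these classes was not tested.

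**Figure D4:**
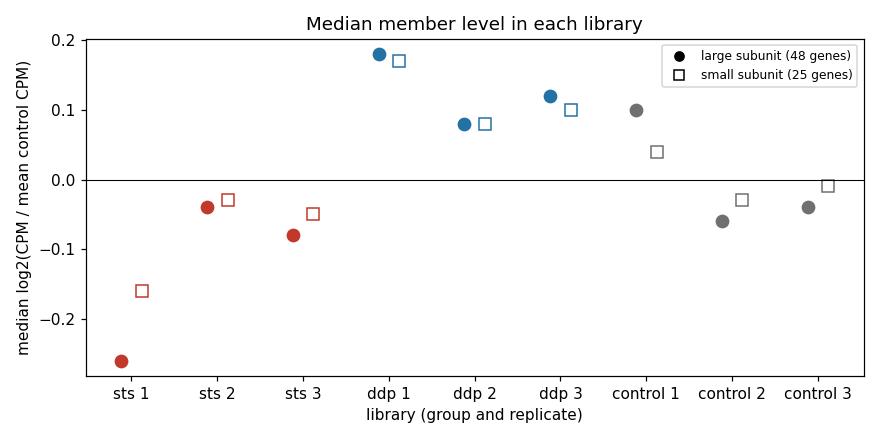
Median over tested members of log2 (CPM in the library over the mean CPM in control), 1 filled circle per library for MRPL genes (n = 48) and 1 open square for MRPS genes (n = 25), with sts left, ddp middle and control right. The ddp libraries lie between 0.08 and 0.18, and the sts libraries below 0 with sts replicate 1 lowest. Both subunits lie close together except in sts replicate 1, at -0.26 for MRPL genes and -0.16 for MRPS genes.

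Library by library, the median over all tested members of log2 CPM over the control mean was -0.23, -0.04 and -0.07 in sts, 0.18, 0.08 and 0.12 in ddp, and 0.07, -0.05 and -0.02 in control. The ddp libraries were above all others, with ddp replicate 2 and control replicate 1 close together. Over the MRPL genes alone control replicate 1, at 0.10, lay above ddp replicate 2, at 0.08. Of the sts libraries, replicate 2 fell within the control range, and replicates 1 and 3 were below it.

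Genes whose symbol and place in the particle differ were followed whatever their change. MRPS18A, MRPS18B and MRPS18C share a name after bacterial S18. MRPS18C is counted here with the bacterial homologues and the others with the mitochondria-specific members, and the MRPS18A protein sits in the large subunit. MRPS18A averaged 19.5 ± 2.93 CPM in sts, 20.7 ± 3.22 CPM in ddp and 18.9 ± 1.52 CPM in control (SD, n = 3), and MRPS18C 15.7 ± 1.83 CPM in sts, 18.4 ± 3.05 CPM in ddp and 17.1 ± 0.671 CPM in control. Their libraries overlapped between all groups and neither passed a test: for MRPS18A the adjusted p against control was 0.818 in sts and 0.565 in ddp, with direction changing when single libraries were left out. MRPS30, also a protein of the large subunit despite its symbol, had 42.8, 41.1 and 42.8 CPM in sts, 50.3, 55.6 and 57.8 CPM in ddp, and 46.1, 49.0 and 50.7 CPM in control. It was lower in sts than in ddp (log2 fold change -0.37, SE 0.085, adjusted p = 0.000693), without overlap. MRPS36, now known as a subunit of the alpha-ketoglutarate dehydrogenase complex rather than of the ribosome, averaged 24.6 ± 1.91 CPM in sts, 25.0 ± 4.63 CPM in ddp and 21.6 ± 0.275 CPM in control and passed no test (adjusted p against control = 0.239 in sts and 0.253 in ddp).

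Subunits that carry other names followed in part. Of 5 such genes, 3 were lower in sts than in ddp (60%, median -0.28), against 19.5% of all tested genes and 29.3% of those at the members' level. They were GADD45GIP1 (-0.41, adjusted p = 0.00146), PTCD3 (-0.31, adjusted p = 0.00186) and AURKAIP1 (-0.28, adjusted p = 0.0179). PTCD3, a pentatricopeptide repeat protein of the small subunit, averaged 116 ± 12.6 CPM in sts, 144 ± 3.96 CPM in ddp and 147 ± 7.84 CPM in control. It was the 1 gene of the list lower in sts than in control (20%, near the 16.8% of all tested genes), with 2 without control replicate 2 or without sts replicate 2. AURKAIP1 did not pass without ddp replicate 1, sts replicate 1 or sts replicate 3 (adjusted p = 0.0726 to 0.0982).

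Factors that build the ribosome and modify its RNA had 11 of 25 genes lower (44.0%, against 29.3% of tested genes at the members' level) and 1 higher in sts against ddp, with a median of -0.23. The 1 higher call ended without sts replicate 1 or 3 or ddp replicate 1 or 2. ERAL1, a GTPase that binds the small subunit's RNA, averaged 54.5 ± 1.66 CPM in sts, 78.2 ± 4.76 CPM in ddp and 69.3 ± 1.99 CPM in control, and was lower in sts against ddp (-0.52, adjusted p = 2.71e-06) and against control (-0.35, adjusted p = 0.000926). In sts against control 4 were lower (2 without sts replicate 1) and 2 higher (1 when any of sts replicates 1 to 3 or control replicates 2 and 3 was left out), METTL15, an rRNA methyltransferase, having -0.51 (adjusted p = 0.000713) and YBEY, an endoribonuclease, 0.38 (adjusted p = 0.00856). The shares in sts against control, 16% lower and 8% higher, were not above those of all tested genes, 16.8% and 15.9%. In ddp against control 2 were higher (8%), near the 7.16% of all tested genes and 9.46% of those at the members' level. They were MRM3, an rRNA methyltransferase, with 0.40 (adjusted p = 0.00128) and FASTKD2 with 0.26 (adjusted p = 0.0309). FASTKD2 did not pass without replicate 1 or 3 of either group (adjusted p = 0.0655 to 0.150).

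Translation factors had 7 of 16 genes lower in sts against ddp (43.8%, against 29.3% of tested genes at the members' level), and 4 of 16 without ddp replicate 1 or 3. In sts against control 4 of 16 were lower (25.0%, against 24.9%), and in ddp against control 2 were higher (12.5%, against 9.46%), shares near those of genes at the members' level. LRPPRC, which stabilises mitochondrial messenger RNAs, averaged 366 ± 31.3 CPM in sts, 496 ± 3.42 CPM in ddp and 469 ± 22.9 CPM in control, and was lower in sts than in control (-0.36, adjusted p = 0.000196). TUFM, the mitochondrial elongation factor Tu, was higher in ddp than in control (0.25, adjusted p = 0.0366), as was the ribosome recycling factor MRRF (0.28, adjusted p = 0.0128). TUFM did not pass without control replicate 2 or 3 or ddp replicate 1 or 2 (adjusted p = 0.0553 to 0.227), and MRRF did not without control replicate 2 or ddp replicate 1 (adjusted p = 0.0616 and 0.0689).

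The mitochondrial aminoacyl-tRNA synthetases, which charge the tRNAs this ribosome uses, had 10 of 18 tested genes lower in sts against control (55.6%) and 10 in sts against ddp, with a median of -0.35 in each. Of all tested genes 16.8% and 19.5% were lower in these comparisons, and of those at the members' level 24.9% and 29.3%. NARS2, for asparagine, averaged 23.2 ± 3.67 CPM in sts, 36.6 ± 2.06 CPM in ddp and 34.8 ± 0.858 CPM in control, a log2 fold change in sts against control of -0.59 (adjusted p = 3.90e-05). IARS2, for isoleucine, had -0.36 in the same comparison (adjusted p = 0.000239). EARS2, for glutamate, was the 1 gene higher in ddp than in control (0.25, adjusted p = 0.0303), with a median of 0.04 over the list. That is 5.56% of the list, against 7.16% of all tested genes. EARS2 passed without ddp replicate 2 but not without any other library (adjusted p = 0.0732 to 0.106).

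**Figure D5:**
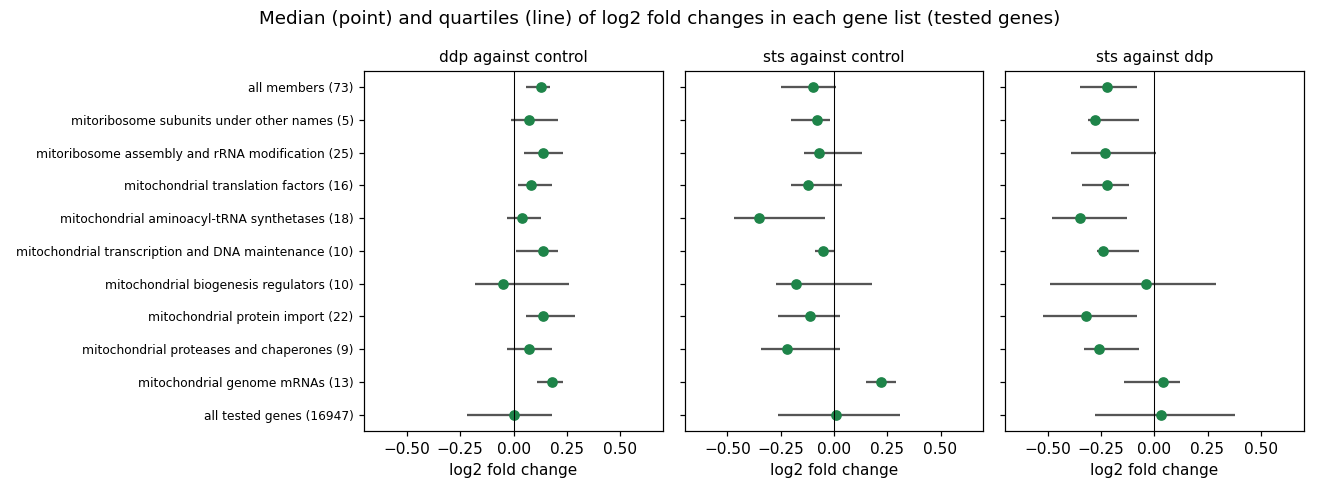
Median (point) and quartiles (line) of the log2 fold change of the tested genes of each list, in ddp against control, sts against control and sts against ddp, with the number of tested genes in brackets and all 16947 tested genes in the last row. The median of the 73 members is 0.13, -0.10 and -0.22 in these panels, and that of the mitochondrial genome mRNAs is 0.18, 0.22 and 0.04.

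Some messenger RNAs of the mitochondrial genome, which the ribosome translates, were higher with vesicles of either kind. Of 13, 6 were higher in sts than in control (46.2%, median 0.22), against 15.9% of all tested genes. In ddp against control 3 were higher (23.1%, median 0.18), against 7.16%. In sts against ddp 3 were lower (23.1%) and 1 higher (7.69%), against 19.5% and 20.2% of all tested genes, so the share lower was near that of other genes. Without control replicate 1 the number higher in sts than in control was 3. The 3 lower in sts than in ddp were MT-ND1, MT-ND4L and MT-ND5, and the 1 higher was MT-ATP8. MT-ATP8 passed only without ddp replicate 1 (adjusted p = 0.0579 to 0.185 without any other library), MT-ND4L did not pass without sts replicate 1 or 2 or ddp replicate 3 (adjusted p = 0.0576 to 0.150), and MT-ND5 did not without sts replicate 2 or ddp replicate 3 (adjusted p = 0.0567 and 0.102). No gene of the list was lower without sts replicate 2 or without ddp replicate 3, and 1 was without sts replicate 1. MT-ND5, a subunit of respiratory complex I, averaged 2206 ± 40.6 CPM in sts, 2511 ± 92.1 CPM in ddp and 1810.3 ± 64.7 CPM in control (adjusted p against control = 0.000955 in sts and 2.66e-06 in ddp). Summed over that genome, transcripts made up 12.7% to 13.1% of the counts in sts, 12.1% to 13.1% in ddp and 11.4% to 12.5% in control. Genes for transcription and upkeep of that genome had 4 of 10 lower in sts against ddp (40%), and 2 without ddp replicate 1 or without sts replicate 3. Of all tested genes 19.5% were lower, and of those at the members' level 29.3%. Among the 4 were TFAM, which packages that genome (-0.26, adjusted p = 0.00934), TFB2M (-0.27, adjusted p = 0.00968) and the RNA polymerase POLRMT (-0.30, adjusted p = 0.0239). TFB2M was higher in ddp than in control (0.28, adjusted p = 0.0163), and POLG, the DNA polymerase, lower in sts than in control (-0.23, adjusted p = 0.0401). When single libraries were left out, the ddp call of TFB2M ended without control replicate 1 or 3 or ddp replicate 1 (adjusted p = 0.0501 to 0.0888). That of POLG ended without control replicate 1 or 2 or sts replicate 2 or 3 (adjusted p = 0.0525 to 0.183), that of POLRMT without ddp replicate 1 or 2 or sts replicate 3 (adjusted p = 0.0901 to 0.164), and that of TFAM without sts replicate 2 (adjusted p = 0.0599).

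Protein import genes, whose products bring ribosomal proteins into the organelle, had 14 of 22 tested genes lower and 1 higher in sts against ddp (median -0.32), 8 lower and 1 higher in sts against control, and 6 higher in ddp against control (3 without ddp replicate 1). The shares lower were 63.6% and 36.4% in sts against ddp and against control, where 19.5% and 16.8% of all tested genes were lower. Of tested genes at the members' level 29.3% and 24.9% were lower. In ddp against control 27.3% were higher, against 7.16% of all tested genes and 9.46% of those at the members' level. GRPEL1, the exchange factor of the import motor's chaperone, averaged 43.6 ± 2.58 CPM in sts, 74.6 ± 6.40 CPM in ddp and 54.6 ± 5.01 CPM in control, and differed between all 3 pairs of groups (adjusted p = 1.34e-08 in sts against ddp, 0.0048 in sts against control and 0.000315 in ddp against control). TOMM40, the channel of the outer membrane, had 95.7 ± 7.55 CPM in sts, 155 ± 7.27 CPM in ddp and 121 ± 12.5 CPM in control, and TOMM20, an outer membrane receptor, was the 1 gene higher in sts, at 369 ± 23.7 CPM, against 301 ± 16.3 CPM in ddp and 291 ± 10.7 CPM in control. Of 9 proteases and chaperones, 5 were lower and 1 higher in sts against control, 4 were lower and 1 higher in sts against ddp, and 1 was higher in ddp against control (0 without replicate 1 or 2 of either group). The shares lower were 55.6% in sts against control and 44.4% in sts against ddp, where 16.8% and 19.5% of all tested genes were lower. Of tested genes at the members' level 24.9% and 29.3% were lower. The share higher was 11.1% in each comparison, against 15.9%, 20.2% and 7.16% of all tested genes. HSPD1, the matrix chaperonin, averaged 965 ± 66.5 CPM in sts, 1575 ± 66.3 CPM in ddp and 1390 ± 69.3 CPM in control (adjusted p = 3.90e-07 in sts against control). SPG7, a subunit of an inner membrane protease that processes MRPL32, was higher in sts, at 182 ± 7.38 CPM, than in control, at 132 ± 4.23 CPM (adjusted p = 7.94e-06).

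Regulators of mitochondrial gene expression went in different directions. Of 10, 4 were higher (2 without ddp replicate 2) and 3 lower in sts against ddp, 2 higher and 3 lower in sts against control, and 2 higher and 1 lower (2 without ddp replicate 1) in ddp against control. Of all tested genes 20.2% were higher and 19.5% lower in sts against ddp, 15.9% and 16.8% in sts against control, and 7.16% and 8.32% in ddp against control. MYC averaged 49.0 ± 1.47 CPM in sts, 77.8 ± 6.83 CPM in ddp and 60.2 ± 4.58 CPM in control (adjusted p = 1.13e-07 in sts against ddp, 0.0071 in sts against control and 0.00192 in ddp against control). PPRC1, a coactivator related to PGC-1 alpha, had 26.3 ± 2.28 CPM in sts, 48.1 ± 2.72 CPM in ddp and 36.2 ± 3.04 CPM in control (adjusted p = 6.32e-09, 0.00034 and 0.00192 in the same comparisons). PPARGC1A, which encodes PGC-1 alpha, had the opposite order, with 11.2 ± 0.526 CPM in sts, 1.63 ± 0.583 CPM in ddp and 6.96 ± 0.298 CPM in control (adjusted p = 6.14e-12, 0.00546 and 1.73e-08). MAX, the partner of MYC, was higher in sts, at 38.5 ± 2.07 CPM, than in control, at 27.8 ± 1.79 CPM (adjusted p = 0.000205).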

How the data were processed

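RNA was sequenced from A549 cells in 3 groups of 3 libraries, with groups and replicate numbers taken from the sample titles. The submitters' processing notes name featureCounts 1.5.0-p3 with Subread, StringTie 1.3.3b, HISAT2 2.0.5, limma and the build hg38, without roles or order. The authors deposited raw whole-number counts of reads for each gene, and FPKM values scaled by gene length and library total. Per the labels' protocols libraries were made with a NEBNext Ultra kit, and strandedness is not stated there. Whether reads of overlapping rows were told apart is therefore not known. Overlap was taken over whole gene spans, and overlap of exons was not examined. Symbols and gene types came from GENCODE v29, and coordinates from the deposited tables. Rows without a gene name (705) held 0.313% to 0.357% of counts.

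Counts were tested with edgeR 4.0.16 in R 4.3.3 (robust quasi-likelihood F test), with TMM scaling, the default expression filter (16947 genes) and all 9 libraries in 1 fit without covariates. The biological coefficient of variation was 0.0992. A gene was called when its p, adjusted by Benjamini and Hochberg over all tested genes, was under 0.05. CPM uses TMM-scaled library totals. Genes at the members' level had a mean log2 CPM between the 10th and 90th percentile of the members (4.23 to 6.87). Alternatives used other scalings and filters, DESeq2 1.42.0, limma 3.58.1 on log2(FPKM + 1) and log2(FPKM + 0.1), a replicate block, fits on the compared groups only and leaving out each library. On simulated data the code recovered 44 to 53 of 100 genes changed 1.5-fold, depending on the comparison. Of the calls there, 6.2% to 8.94% were on unchanged genes. Intervals cover the spread between libraries, and the floor of 3 counts covers counting error only.

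The members and gene lists were chosen with earlier results of these data known. Named genes were, per comparison, the called members of largest log2 fold change (up to 8 in each direction), MRPS18A, MRPS18B, MRPS18C, MRPS30 and MRPS36, the 5 highest and 3 lowest members in control, and up to 3 called genes of smallest p per list; MRPL12, MRPL22 and the low members were added after their values were seen. A gene that this rule names is not reported here.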

Additional observations from a re-analysis of the deposited data

How the results depend on the processing

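The median log2 fold change of the members kept its direction under all 15 alternatives: 0.095 to 0.163 in ddp against control, -0.161 to -0.069 in sts against control and -0.258 to -0.176 in sts against ddp. The difference of the subunit medians, large minus small, was -0.068 to -0.021 in sts against control, -0.074 to -0.023 in sts against ddp and -0.012 to 0.031 in ddp against control, where leaving out a library turned its sign. No scaling moved the median of all genes by more than 0.1 on the log2 scale. Members higher in ddp against control numbered 4, up to 6 under other settings and 1 to 4 with a library left out. Members higher in sts against control numbered 1, with 2 under upper-quartile scaling, 2 with no filter and 1 to 3 with a library left out, and those lower numbered 17, with 13 to 20. Members lower in sts against ddp numbered 37, with 29 under upper-quartile scaling and 22 to 38 with a library left out. The cause was not tested. Directions of a few named members near 0 reversed with a library left out. In ddp against control the range was -0.007 to 0.198 for MRPS18A, -0.000 to 0.226 for MRPL41 and -0.014 to 0.154 for MRPL51. In sts against control it was -0.077 to 0.129 for MRPS18A and -0.069 to 0.025 for MRPS35, which had 0.016 under upper-quartile scaling. In sts against ddp it was -0.205 to 0.040 for MRPS18A, -0.171 to 0.109 for MRPS36 and -0.115 to 0.094 for MRPL41, and upper-quartile scaling gave 0.007 for MRPS36 and 0.005 for MRPL41. Deviations of same-numbered libraries correlated at -0.0847 to 0.0547, so the numbers did not pair the libraries. With the replicate number as a block, 3 members were higher in ddp against control, 1 higher and 16 lower in sts against control, and 33 lower in sts against ddp. Calls lost under it were MRPS7 in ddp against control, MRPL39 and MRPL44 in sts against control, and MRPL24, MRPL33, MRPL51 and MRPL57 in sts against ddp. Of the values of named genes under alternatives, 1599 kept direction and call, 85 lost the call, 5 gained it and 15 reversed. Members below about 2 FPKM had few reads, and differences of the size seen in other members were not detectable there.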
